A study of Mus musculus with 6 samples.

Results

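Chromatin modifiers and remodellers are described here as 87 genes of the 23308 gene symbols measured. They were chosen by symbol alone: the histone demethylases (Kdm), the SWI/SNF and ISWI remodelling subunits (Smarc), the CHD remodellers, the zinc-dependent deacetylases (Hdac), the acetyltransferases (Kat), the SETD and arginine methyltransferases (Setd, Prmt and Carm1), the bromodomain proteins of the Brd family, the core of Polycomb repressive complex PRC2 (Ezh1, Ezh2, Eed and Suz12) and the corepressor Trim28. The Y-linked Kdm5d was left out. The rule itself uses no measured value.

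The study compared mouse oocytes and embryos labelled as lacking YAP, a transcriptional co-activator of the Hippo pathway encoded by Yap1, with wild-type ones. Messenger RNA with a poly(A) tail was sequenced in 6 libraries; 60 oocytes or embryos went into each, from ICR-background females of 21 to 23 days. There was 1 YAP-null (YAP-/-) and 1 wild-type (WT) library of 4-cell embryos. From oocytes with an intact germinal vesicle (GV), the stage before meiotic maturation, there were 2 YAP-null and 2 wild-type libraries. Females were primed with the gonadotrophin PMSG; those that gave embryos also received hCG and were mated. The genotype of the fathers and the cells of the females in which Yap1 was deleted were not given in the sources used here, so the 4-cell label cannot be taken as the genotype of the embryo itself. The source field of the labels calls the 4-cell samples GV oocytes, whereas the titles and the stage entry name 4-cell embryos, and these were followed. Nothing says that the GV libraries of a genotype came from separate animals, so p-values measure only the spread between these samples.

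Enzymes that add or remove acetyl and methyl groups on histone tails, the proteins that read those marks and the ATP-driven machines that move nucleosomes together set which genes can be transcribed. A growing oocyte stores transcripts of many of these factors. After fertilisation the stored transcripts are cleared, the embryo begins to transcribe its own genome, and the histone marks inherited from the gametes are rewritten, which is why this gene set has been studied closely at this transition. YAP itself does not bind DNA and acts through TEAD factors, whose core motif is GGAATG, which reads CATTCC on the other strand.

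Promoter sequences, from 250 bases before to 50 bases after an annotated start, were found in RefSeq for 68 of the 87 genes, on build GRCm38.p6. The TEAD core motif, searched on both strands, lay in 15 of their 93 promoters (16.1%), against 14.7% of all 32851 promoters in the table. The members' promoters held a median of 24 CpG dinucleotides, against 7 over all promoters. The promoters below are shown because they hold the motif and belong to genes that behaved differently here: the 4-cell embryos had more of the acetyltransferase Kat2b than the oocytes, and less of the acetyltransferase Kat8, and the bromodomain gene Brd9 was more than 2-fold lower in the YAP-null than in the wild-type 4-cell library. Capitals mark the motif. In Kat2b 2 of the 3 copies overlap by 1 base, and the other annotated start of Kat2b and of Kat8 has no copy in its window. A match is a description of these letters, not a binding site.
Kat2b, chr17:53583876-53584175, plus strand: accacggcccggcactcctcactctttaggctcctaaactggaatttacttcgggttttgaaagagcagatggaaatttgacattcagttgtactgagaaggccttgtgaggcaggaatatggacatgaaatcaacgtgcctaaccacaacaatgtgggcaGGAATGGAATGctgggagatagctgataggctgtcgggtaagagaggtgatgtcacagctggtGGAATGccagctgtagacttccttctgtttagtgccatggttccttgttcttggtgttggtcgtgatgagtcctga
Kat8, chr7:127912764-127913063, plus strand: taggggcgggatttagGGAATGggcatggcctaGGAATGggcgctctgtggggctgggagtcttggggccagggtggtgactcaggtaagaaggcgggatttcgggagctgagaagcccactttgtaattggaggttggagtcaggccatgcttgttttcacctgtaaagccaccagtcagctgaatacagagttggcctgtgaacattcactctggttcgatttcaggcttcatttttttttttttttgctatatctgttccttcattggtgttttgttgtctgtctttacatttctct
Brd9, chr13:73937561-73937860, plus strand: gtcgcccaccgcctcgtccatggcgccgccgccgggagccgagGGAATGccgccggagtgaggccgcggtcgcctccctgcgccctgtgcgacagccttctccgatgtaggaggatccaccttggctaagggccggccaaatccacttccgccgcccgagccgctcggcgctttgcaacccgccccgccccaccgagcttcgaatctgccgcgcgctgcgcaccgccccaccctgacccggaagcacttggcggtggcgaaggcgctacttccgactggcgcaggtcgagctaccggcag

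Levels are given in FPKM, the fragments mapped to a gene scaled to transcript length and to library size, so that levels of different genes can be compared per length. The number of fragments behind a library is unknown; the deposited bounds imply relative depths from 0.358 to 1. Yap1 stood at 33.3 FPKM in YAP-null 4-cell embryos and 89.7 FPKM in wild-type ones. In GV oocytes Yap1 stood at 10.8 and 10.04 FPKM in the YAP-null libraries, against 248 and 153.5 FPKM in the wild-type libraries. The 10 oocyte marker genes summed to 997 FPKM in YAP-null 4-cell embryos and 165 FPKM in wild-type ones, and to between 5892 and 9599 FPKM in the GV libraries. The 10 cleavage-stage genes summed to 1211 FPKM in YAP-null 4-cell embryos and 1811 FPKM in wild-type ones, and to between 363 and 635 FPKM in the GV libraries. Not every gene followed its sum. The oocyte marker Sohlh1 was at 0 in every GV library and at 2.33 and 2.66 FPKM in the YAP-null and wild-type 4-cell libraries. Klf17 had 322 FPKM in the YAP-null GV library 1, against 290 FPKM in the YAP-null 4-cell library. Pou5f1 had 298 FPKM in the wild-type GV library 1, against 207 FPKM in the wild-type 4-cell library. Granulosa cell markers summed to 1.89 and 1.496 FPKM in the YAP-null and wild-type 4-cell libraries, against 28.5 to 35.5 FPKM in the GV libraries, with Amh, Cyp19a1 and Inha detected in every GV library. In the YAP-null GV library 1, 19.1% of the FPKM sum came from a single small RNA gene, Mir762.

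Together the 87 genes took 0.754% of the FPKM sum in the YAP-null and 0.785% in the wild-type 4-cell library, against 0.414% and 0.567% in the YAP-null and 0.502% and 0.580% in the wild-type GV libraries. At least 1 FPKM was reached by 59 genes in all 6 libraries, and 4 genes stayed below 1 FPKM in every library: Hdac7, Prmt8, Setd7 and Smarca1. The order of levels differed between the stages. In 4-cell embryos the highest means over both libraries belonged to Prmt1 (260.2 FPKM), Trim28 (254 FPKM), Suz12 (176.5 FPKM), Hdac1 (174 FPKM), Smarca5 (141 FPKM) and Kdm5b (135 FPKM). The ranges of neighbours in that order overlapped: Prmt1 ran from 189 to 331 FPKM and Trim28 from 181 to 327 FPKM. In GV oocytes the highest means over 4 libraries belonged to Smarcd2 (164 FPKM), Kat8 (141 FPKM), Ezh2 (130.0 FPKM), Trim28 (113 FPKM), Kdm2b (97.3 FPKM) and Smarcb1 (93.9 FPKM), again with overlapping ranges. Trim28, which recruits silencing complexes to zinc finger repressors, was the only gene among the first 4 at both stages.

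The stage comparison asked how these transcripts differ between 4-cell embryos and GV oocytes. Differences between groups are given on the scale of log2(FPKM + 1), which understates the change of genes at low levels, and a gene passed at an adjusted p under 0.05 in limma with genotype as a covariate. Of the 78 genes that averaged 1 FPKM or more, 29 rose and 10 fell in 4-cell embryos relative to GV oocytes, so that 50% passed. Over all 11451 genes tested 56% passed, 28.2% higher and 27.8% lower. The members' shares were 37.2% higher and 12.8% lower, their median difference was 0.77, and the median of all genes was -0.10. The 4-cell and GV libraries did not overlap in 53 of the 78 members tested (67.9%), near the 70.4% of all genes tested, and these 53 include all 39 that passed. The 9 genes under the filter were Chd2, Hdac5, Hdac7, Hdac10, Hdac11, Prmt8, Setd7, Smarca1 and Smarcd3. Without the YAP-null 4-cell library 24 members passed, and without the wild-type 4-cell library 19 passed. Of the 39, 10 passed within neither genotype alone. Over all genes tested, too, fewer passed without either 4-cell library and within either genotype alone. Granulosa cell markers, which summed to under 2 FPKM in both 4-cell libraries and to over 28 FPKM in each GV library, moved with the stage as well, and their part in these differences was not tested. In bulk samples such as these, fewer cells that express a gene and less RNA per cell cannot be told apart.

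**Figure D1:**
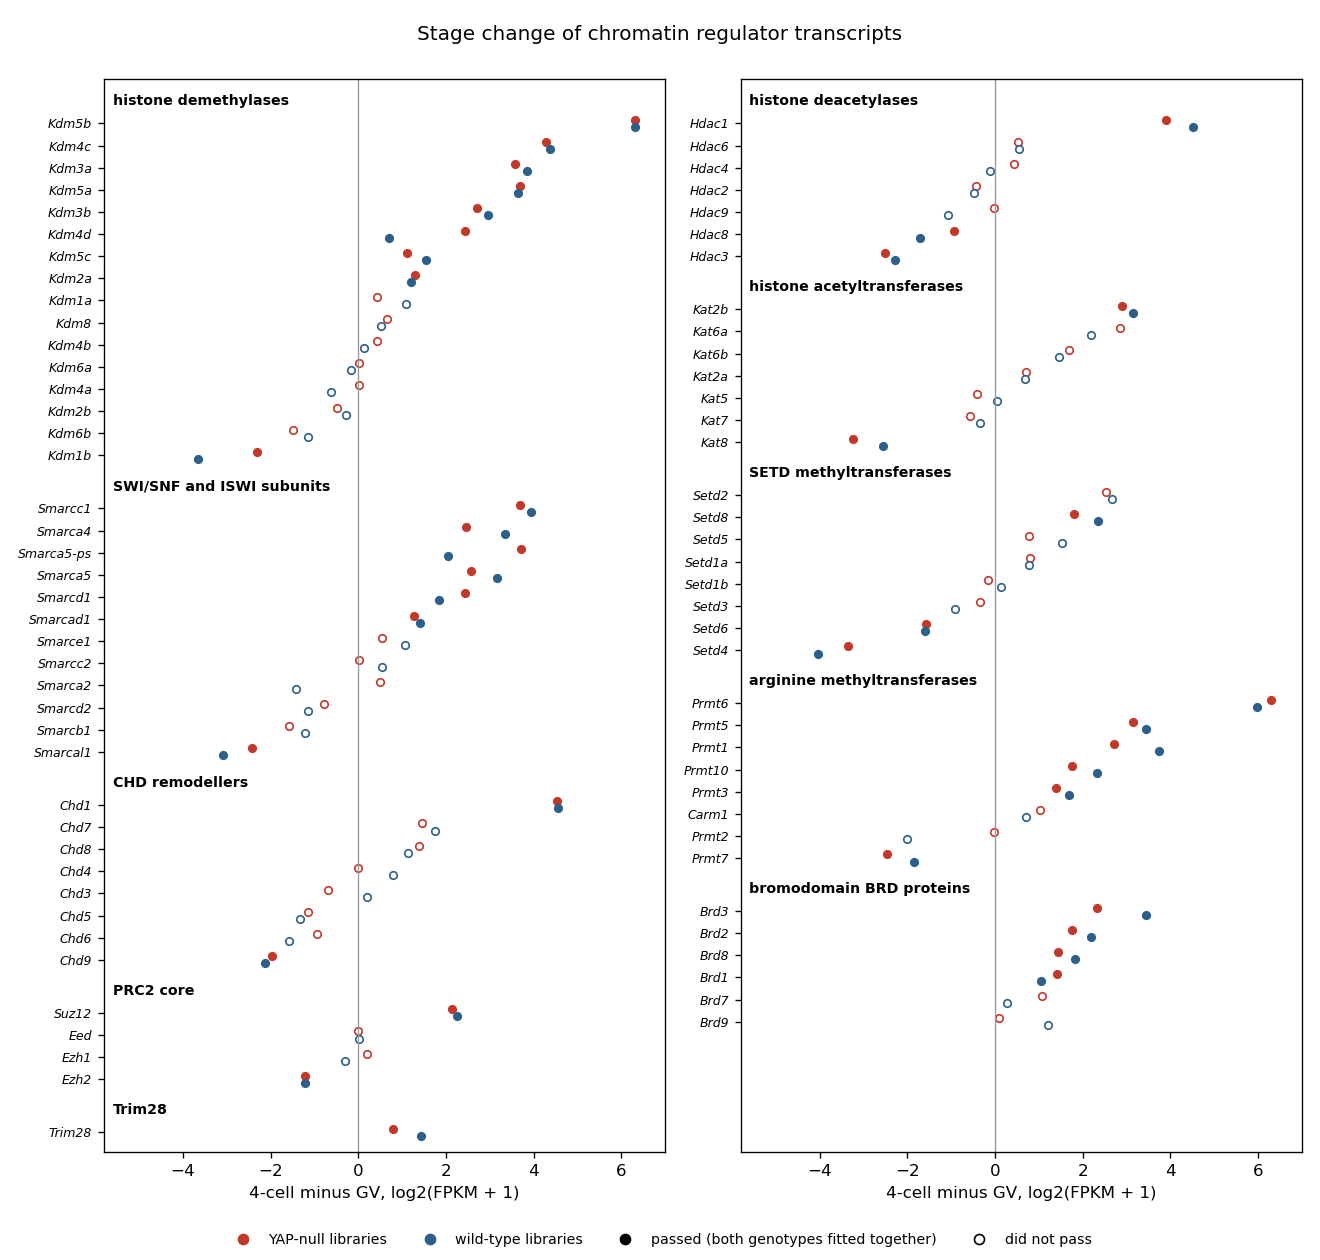
Stage difference by family for all but 1 of the 78 tested genes, on the scale of log2(FPKM + 1), with 4-cell minus GV on the horizontal axis. Each gene has a red point for the YAP-null libraries (1 minus the mean of 2) and a blue point for the wild-type libraries; filled points passed when both genotypes were fitted together, and Kdm5b and Prmt6 lie farthest to the right, above 5.9.

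Among the histone demethylases 8 of 16 rose, 1 fell and 7 did not pass. Kdm5b, which removes methyl groups from H3K4, stood at 141 FPKM in YAP-null 4-cell embryos and 129 FPKM in wild-type ones, against 0.908 and 0.670 FPKM in YAP-null GV oocytes and 0.704 and 0.581 FPKM in wild-type GV oocytes. Every 4-cell value lay far above every GV value, and the log2 difference was 6.31 (SE 0.30, limma adjusted p = 0.00012). Its locus on mm9 is chr1:136456755-136529455. The related Kdm5a had 16.5 FPKM in YAP-null 4-cell embryos and 17.3 FPKM in wild-type ones, and 0.0910 to 0.864 FPKM in the GV libraries. Kdm5c, on the X chromosome, had 21.9 and 26.9 FPKM in the YAP-null and wild-type 4-cell libraries, and 7.59 to 10.8 FPKM in the GV libraries, and lost its call without either 4-cell library. Of the summed FPKM of these Kdm5 genes Kdm5b took 78.6% in the YAP-null and 74.5% in the wild-type 4-cell library. It took 9.63% and 5.50% in the YAP-null and 8.36% and 5.21% in the wild-type GV libraries, where Kdm5c had the highest level of the family.

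Kdm4c, Kdm3a and Kdm3b, which demethylate H3K9, rose as well. Kdm4c stood at 19.8 FPKM in YAP-null 4-cell embryos and 25.3 FPKM in wild-type ones, against 0.0812 and 0.0638 FPKM in YAP-null GV oocytes and 0.153 and 0.409 FPKM in wild-type GV oocytes. Its log2 difference was 4.32 (SE 0.26, limma adjusted p = 0.00015). Kdm3a had 23.5 FPKM in YAP-null 4-cell embryos and 30.9 FPKM in wild-type ones, against 0.986 and 1.11 FPKM in YAP-null GV oocytes and 1.37 and 1.06 FPKM in wild-type GV oocytes. Kdm3b followed with a log2 difference of 2.83. The paralogues Kdm4a and Kdm4b did not pass: Kdm4a ran from 21.5 to 38.4 FPKM over all 6 libraries, and Kdm4b from 3.15 to 6.30 FPKM. Kdm4a therefore took 55.1% of the summed Kdm4a, Kdm4b and Kdm4c level in the YAP-null and 42.1% in the wild-type 4-cell library, against 85.7% to 91.5% in the GV libraries.

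The demethylase that fell was Kdm1b, a flavin-dependent H3K4 demethylase known from mouse oocytes, where it is needed to set maternal DNA methylation imprints. Kdm1b stood at 15.0 FPKM in YAP-null 4-cell embryos and 4.93 FPKM in wild-type ones, against 79.1 and 78.3 FPKM in YAP-null GV oocytes and 73.5 and 75.1 FPKM in wild-type GV oocytes. The GV values of both genotypes lay within a narrow range and all above the 4-cell values, with a log2 difference of -2.99 (SE 0.39, limma adjusted p = 0.0014). Its locus, chr13:47138868-47180648 on mm9, overlaps that of Dek in the files, and the strand setting of the counting is not given, so the assignment of reads between them is uncertain. The same holds for Kdm5a, Kat8, Carm1, Prmt2 and Smarca2, whose loci also overlap another listed gene. Its paralogue Kdm1a had 36.3 and 58.2 FPKM in the YAP-null and wild-type 4-cell libraries, against 24.4 to 29.7 FPKM in the GV libraries. The Kdm1a difference of 0.76 did not pass (limma adjusted p = 0.088). Kdm6a, an H3K27 demethylase, ran from 22.2 to 32.9 FPKM over the 6 libraries and did not pass.

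Among the Smarc genes 6 of 12 rose, 1 fell and 5 did not pass. Smarcc1, a scaffold subunit of SWI/SNF, stood at 50.4 FPKM in YAP-null 4-cell embryos and 56.2 FPKM in wild-type ones, against 1.90 and 4.43 FPKM in YAP-null GV oocytes and 1.64 and 4.33 FPKM in wild-type GV oocytes. The groups did not overlap and the log2 difference was 3.81 (SE 0.45, limma adjusted p = 0.0009). Its paralogue Smarcc2 had 3.95 and 6.53 FPKM in the YAP-null and wild-type 4-cell libraries and 1.58 to 8.41 FPKM in the GV libraries. The share of Smarcc1 in the pair was 92.7% in the YAP-null and 89.6% in the wild-type 4-cell library, against 34.3% to 54.7% in the GV libraries. Smarca5, the ATPase of ISWI complexes, stood at 121 FPKM in YAP-null 4-cell embryos and 161 FPKM in wild-type ones, against 17.9 and 21.1 FPKM in YAP-null GV oocytes and 13.5 and 21.3 FPKM in wild-type GV oocytes. Smarca5 rose by a log2 difference of 2.87 (SE 0.35, limma adjusted p = 0.0011), and its paralogue Smarca1 stayed at 0 in both 4-cell libraries and at no more than 0.846 FPKM in the GV libraries. Reads may be divided between Smarca5 and the pseudogene Smarca5-ps; their sum was 135 FPKM in YAP-null 4-cell embryos and 165 FPKM in wild-type ones, against 13.7 to 21.7 FPKM in the GV libraries.

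Smarca4, the BRG1 ATPase of SWI/SNF, which is known to be needed as a maternal product for genome activation in mouse embryos, stood at 59.5 FPKM in YAP-null 4-cell embryos and 131 FPKM in wild-type ones. In YAP-null GV oocytes Smarca4 stood at 3.49 and 26.2 FPKM, and in wild-type GV oocytes at 4.34 and 31.1 FPKM. The 4-cell values lay above all GV values, but within each genotype the GV library numbered 2 was several times the library numbered 1. The log2 difference was 2.89 (SE 0.95, limma adjusted p = 0.041), and the call was lost without either 4-cell library (adjusted p up to 0.352) and without either GV library numbered 1. It was also lost with a pseudocount of 0.1, with no filter on low values and with libraries rescaled to the same FPKM sum. Its alternative ATPase Smarca2 had 34.9 FPKM in YAP-null 4-cell embryos and 8.66 FPKM in wild-type ones, against 8.38 and 67.9 FPKM in YAP-null GV oocytes and 8.18 and 72.6 FPKM in wild-type GV oocytes. Against the GV libraries numbered 1 alone the stage difference of Smarca2 was 1.00 (limma adjusted p = 0.106), and against those numbered 2 alone it was -1.94 (limma adjusted p = 0.0126), so its direction rests on which GV libraries are used.

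The Smarc gene that fell was Smarcal1, in name a SWI/SNF relative and in function an annealing helicase at stalled replication forks. It stood at 3.26 FPKM in YAP-null 4-cell embryos and 1.73 FPKM in wild-type ones, against 22.9 and 20.9 FPKM in YAP-null GV oocytes and 21.8 and 22.7 FPKM in wild-type GV oocytes. Its log2 difference was -2.75 (SE 0.32, limma adjusted p = 0.00091). Smarcd2 and Smarcb1, among the highest members in oocytes, did not pass. Smarcb1, a core SWI/SNF subunit, had 27.6 and 36.7 FPKM in the YAP-null and wild-type 4-cell libraries, against 136 and 52.0 FPKM in YAP-null GV oocytes and 130.1 and 57.3 FPKM in wild-type GV oocytes (limma adjusted p = 0.065). Smarce1, the HMG-box subunit, had 47.9 and 75.6 FPKM in the YAP-null and wild-type 4-cell libraries and 30.5 to 36.4 FPKM in the GV libraries (limma adjusted p = 0.069). Smarcd1 made up 6.99% of the summed Smarcd1, Smarcd2 and Smarcd3 level in the YAP-null and 6.81% in the wild-type 4-cell library, and at most 1.08% in a GV library.

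Of 8 CHD remodellers tested 1 rose, 1 fell and 6 did not pass. Chd1, a remodeller that reads methylated H3K4, stood at 38.5 FPKM in YAP-null 4-cell embryos and 41.8 FPKM in wild-type ones, against 0.211 and 1.43 FPKM in YAP-null GV oocytes and 0.358 and 1.42 FPKM in wild-type GV oocytes. Its log2 difference was 4.54 (SE 0.43, limma adjusted p = 0.00048). Chd9 fell, with 1.12 and 0.833 FPKM in the YAP-null and wild-type 4-cell libraries and 5.37 to 9.19 FPKM in the GV libraries, a call that was lost without either 4-cell library. Chd4, the ATPase of the NuRD complex, had 31.7 FPKM in YAP-null 4-cell embryos and 56.8 FPKM in wild-type ones, against 12.0 and 82.6 FPKM in YAP-null GV oocytes and 12.4 and 82.9 FPKM in wild-type GV oocytes. Both 4-cell values of Chd4 lay between the GV libraries numbered 1 and those numbered 2, and the difference of 0.39 did not pass. Chd4 took at least 96.2% of the summed Chd3 and Chd4 level in every library.

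Among the deacetylases 1 of 7 rose, 2 fell and 4 did not pass. Hdac1 stood at 132 FPKM in YAP-null 4-cell embryos and 215 FPKM in wild-type ones, against 9.96 and 6.11 FPKM in YAP-null GV oocytes and 11.2 and 6.38 FPKM in wild-type GV oocytes. Its log2 difference was 4.21 (SE 0.39, limma adjusted p = 0.00045). Hdac2, its close paralogue in the same corepressor complexes, had 37.5 and 28.8 FPKM in the YAP-null and wild-type 4-cell libraries, and 38.8 to 54.1 FPKM in the GV libraries, and did not pass. The pair thus changed order, with Hdac1 at 77.9% of their sum in the YAP-null and 88.2% in the wild-type 4-cell library, against 11.2% to 20.9% in the GV libraries. Hdac3, the catalytic subunit of the NCoR and SMRT corepressors, had 1.55 and 2.19 FPKM in the YAP-null and wild-type 4-cell libraries, against 10.2 to 20.0 FPKM in the GV libraries. Hdac8, which deacetylates cohesin, had 3.50 and 1.84 FPKM in the YAP-null and wild-type 4-cell libraries, against 6.86 to 9.84 FPKM in the GV libraries. The falls of Hdac3 and Hdac8 were -2.39 and -1.32 on the log2 scale, and both lost their calls without either 4-cell library, Hdac8 also without the wild-type GV library 1.

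Among the acetyltransferases 1 of 7 rose, 1 fell and 5 did not pass. Kat2b, one of whose promoters is printed above, had 6.85 FPKM in YAP-null 4-cell embryos and 8.19 FPKM in wild-type ones. Kat2b was listed at 0 and 0.131 FPKM in YAP-null GV oocytes and 0 and 0.0697 FPKM in wild-type GV oocytes. Its log2 difference was 3.02 (SE 0.23, limma adjusted p = 0.00026). Its paralogue Kat2a had the higher level in every library, from 24.1 to 43.6 FPKM, and did not pass. Kat8, the MOF enzyme that acetylates H4K16, stood at 13.8 FPKM in YAP-null 4-cell embryos and 22.3 FPKM in wild-type ones, against 186 and 102 FPKM in YAP-null GV oocytes and 161 and 113 FPKM in wild-type GV oocytes. The Kat8 libraries of the stages were well apart, with a log2 difference of -2.89 (SE 0.41, limma adjusted p = 0.0018). Kat6a and Kat6b, large paralogous acetyltransferases, did not pass: Kat6b had 24.3 and 25.3 FPKM in the YAP-null and wild-type 4-cell libraries, against 1.72 and 21.9 FPKM in YAP-null GV oocytes and 2.46 and 25.5 FPKM in wild-type GV oocytes.

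Of 8 SETD methyltransferases tested 1 rose, 2 fell and 5 did not pass. Setd4, a lysine methyltransferase, stood at 7.35 FPKM in YAP-null 4-cell embryos and 3.57 FPKM in wild-type ones, against 137 and 52.1 FPKM in YAP-null GV oocytes and 107 and 51.1 FPKM in wild-type GV oocytes. This was the steepest fall among the members, with a log2 difference of -3.70 (SE 0.53, limma adjusted p = 0.0018), and it lost its call without the wild-type 4-cell library (adjusted p = 0.0647). Setd6, known to methylate the NF-kappaB subunit RelA, had 4.23 and 4.51 FPKM in the YAP-null and wild-type 4-cell libraries, against 13.3 to 18.2 FPKM in the GV libraries; it too lost its call without the wild-type 4-cell library. The H4K20 methyltransferase Setd8, now named Kmt5a, rose by 2.07, a call that was lost without either 4-cell library (adjusted p up to 0.255). Setd2, which trimethylates H3K36, had 52.7 and 60.4 FPKM in the YAP-null and wild-type 4-cell libraries, against 2.20 and 26.4 FPKM in YAP-null GV oocytes and 2.66 and 24.7 FPKM in wild-type GV oocytes. The Setd2 values of the stages did not overlap, yet the difference did not pass (limma adjusted p = 0.078).

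Among the arginine methyltransferases 5 of 8 rose, 1 fell and 2 did not pass. Prmt6, which methylates H3R2 asymmetrically, stood at 109 FPKM in YAP-null 4-cell embryos and 76.5 FPKM in wild-type ones, against 0.572 and 0.266 FPKM in YAP-null GV oocytes and 0.107 and 0.360 FPKM in wild-type GV oocytes. All GV values were below 1 FPKM, and the log2 difference was 6.13 (SE 0.31, limma adjusted p = 0.00012). Prmt1, the main asymmetric arginine methyltransferase, stood at 189 FPKM in YAP-null 4-cell embryos and 331 FPKM in wild-type ones, against 34.7 and 22.4 FPKM in YAP-null GV oocytes and 30.1 and 18.9 FPKM in wild-type GV oocytes. Prmt5, which makes symmetric dimethylarginine, had 69.5 FPKM in YAP-null 4-cell embryos and 109.7 FPKM in wild-type ones, and 4.77 to 11.4 FPKM in the GV libraries. The log2 differences of Prmt1 and Prmt5 were 3.23 and 3.29. Prmt7, a monomethylating enzyme, fell: it had 5.83 and 9.57 FPKM in the YAP-null and wild-type 4-cell libraries, against 59.5 and 22.2 FPKM in YAP-null GV oocytes and 62.5 and 21.5 FPKM in wild-type GV oocytes. Its call was lost without either 4-cell library (adjusted p up to 0.215). Carm1, which methylates H3R17 and has been linked to cell fate in the 4-cell mouse embryo, had 14.2 and 10.97 FPKM in the YAP-null and wild-type 4-cell libraries, against 4.18 and 9.84 FPKM in YAP-null GV oocytes and 4.02 and 9.62 FPKM in wild-type GV oocytes, and did not pass (limma adjusted p = 0.164).

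Among the Brd family 4 of 7 rose and 3 did not pass. Of the BET proteins, which bind acetylated histones, Brd2 had 92.4 and 124 FPKM in the YAP-null and wild-type 4-cell libraries, against 21.4 to 33.6 FPKM in the GV libraries (limma adjusted p = 0.0043). Brd3 had 15.0 FPKM in YAP-null 4-cell embryos and 41.4 FPKM in wild-type ones, against 0.836 and 4.49 FPKM in YAP-null GV oocytes and 1.33 and 5.58 FPKM in wild-type GV oocytes (limma adjusted p = 0.010). The call of Brd2 was lost without the wild-type 4-cell library and that of Brd3 without either 4-cell library (adjusted p up to 0.188).

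Of the PRC2 core, which methylates H3K27, Suz12 rose, Ezh2 fell, and Eed and Ezh1 did not pass. Suz12 stood at 183 FPKM in YAP-null 4-cell embryos and 169.9 FPKM in wild-type ones, against 31.4 and 52.8 FPKM in YAP-null GV oocytes and 24.0 and 50.8 FPKM in wild-type GV oocytes (log2 difference 2.19, SE 0.43, limma adjusted p = 0.0061), a call lost without either 4-cell library (adjusted p up to 0.0914). Ezh2, the main catalytic subunit, stood at 53.4 FPKM in YAP-null 4-cell embryos and 52.7 FPKM in wild-type ones, against 98.9 and 158 FPKM in YAP-null GV oocytes and 89.7 and 173 FPKM in wild-type GV oocytes. The fall of Ezh2 was small next to that of Kdm1b (log2 difference -1.22, SE 0.42, limma adjusted p = 0.0456), and its call was lost without either 4-cell library and without either GV library numbered 2, as well as with no filter on low values or an equal FPKM sum. Eed, the subunit that binds methylated H3K27, had 61.2 and 59.2 FPKM in the YAP-null and wild-type 4-cell libraries, within the GV range of 44.4 to 77.9 FPKM. Trim28 rose by 1.11 (SE 0.35, limma adjusted p = 0.036), with 181 FPKM in YAP-null 4-cell embryos and 327 FPKM in wild-type ones, against 102 and 106 FPKM in YAP-null GV oocytes and 131 and 112 FPKM in wild-type GV oocytes. The Trim28 call was lost without the wild-type 4-cell library or any single GV library (adjusted p up to 0.140).

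In several paralogue pairs the more abundant member differed between the stages. The pairs were fixed with earlier results of these data known and carry no test; Prmt1 with Prmt2 was added after their values were seen. Smarca4 took 63.0% of the summed Smarca4 and Smarca2 level in the YAP-null and 93.8% in the wild-type 4-cell library, against 29.4% and 27.9% in the YAP-null and 34.7% and 30.0% in the wild-type GV libraries. Both ATPases differed several-fold between the GV libraries of a genotype, whereas the share of Smarca4 stayed within 27.9% and 34.7% there. Kdm1a took 70.8% of the Kdm1a and Kdm1b sum in the YAP-null and 92.2% in the wild-type 4-cell library, against 24.8% to 28.3% in the GV libraries. Prmt1 took 80.3% of the Prmt1 and Prmt2 sum in the YAP-null and 96.8% in the wild-type 4-cell library, against 33.1% to 39.4% in the GV libraries. In each of these 3 pairs and in Hdac1 with Hdac2 the share in the YAP-null 4-cell library lay between those of the GV libraries and that of the wild-type 4-cell library. Kdm4a among Kdm4a, Kdm4b and Kdm4c and Kat2a with Kat2b followed that order too, with lower shares in the 4-cell than in the GV libraries. Chd1 with Chd2 did as well, but at 97.08% in the YAP-null and 97.12% in the wild-type 4-cell library. Smarcc1, Kdm5b and Ezh2 did not, nor did Smarcd1 among Smarcd1, Smarcd2 and Smarcd3, Chd4 with Chd3 or Kdm6a with Kdm6b. Smarca5 took 100% of its sum with Smarca1 in both 4-cell libraries. The share of Smarcc1 was 92.7% in the YAP-null and 89.6% in the wild-type 4-cell library, and that of Kdm5b among Kdm5a, Kdm5b and Kdm5c was 78.6% in the YAP-null and 74.5% in the wild-type one, with no more than 9.63% in a GV library. Ezh2 took 68.1% of the Ezh1 and Ezh2 sum in the YAP-null and 74.6% in the wild-type 4-cell library, against 81.3% to 87.7% in the GV libraries. The order of Kdm6a and Kdm6b differed between GV libraries of the same genotype. Kdm6a took 82.7% and 33.1% in the YAP-null GV libraries 1 and 2, and 83.25% and 34.1% in the wild-type ones. Its share was 82.6% in the YAP-null and 76.5% in the wild-type 4-cell library. Smarcc1 likewise took 54.7% and 34.5% in the YAP-null GV libraries 1 and 2. The oocyte marker sum was 997 FPKM in YAP-null 4-cell embryos and 165 FPKM in wild-type ones, and its part in these shares was not tested.

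**Figure D2:**
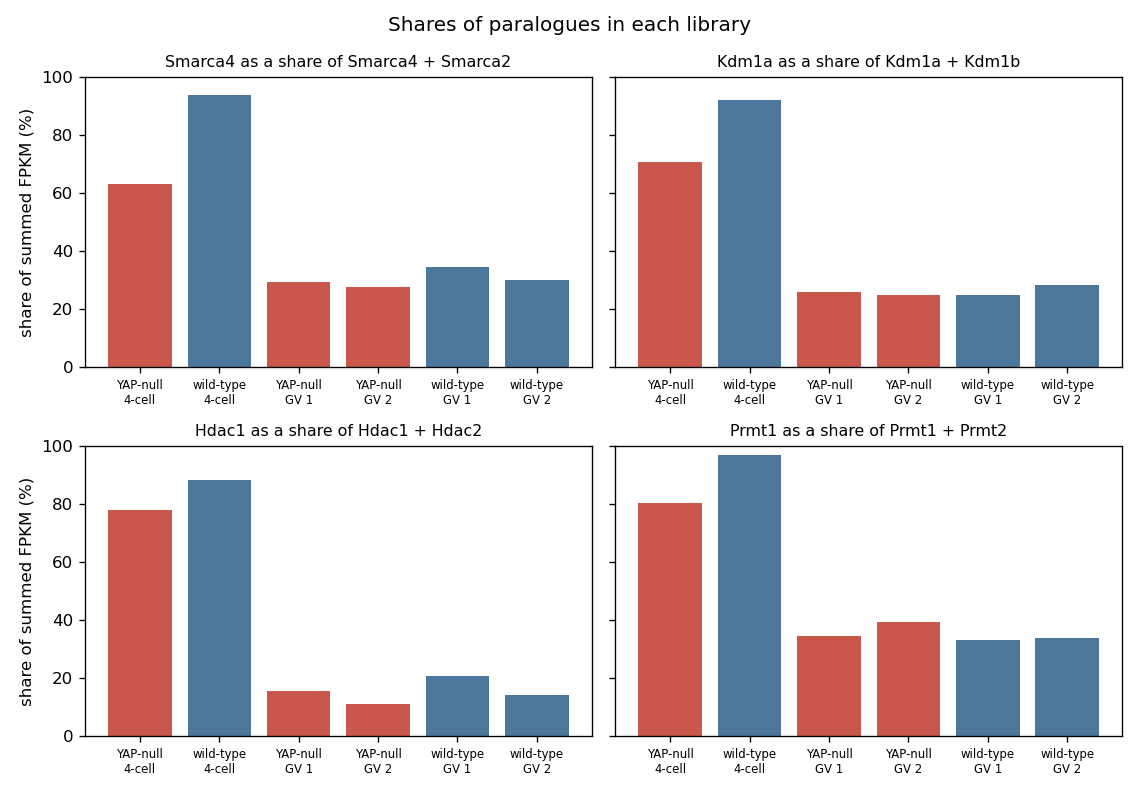
Share of the first gene in the summed FPKM of a pair of paralogues (percent, vertical axis) in each of the 6 libraries, YAP-null in red and wild type in blue; bars are single libraries, so there are no error bars. For all 4 pairs the share was under 40% in every GV library, above 60% in the YAP-null 4-cell library and higher again in the wild-type 4-cell library.

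The genotype comparison at the 4-cell stage had 1 library per genotype, so it has no replicate check and no p-value. Of 79 members that averaged 1 FPKM or more, 10 (12.7%) were at least 2-fold apart on the scale of log2(FPKM + 1); the YAP-null library was the higher one for 6 and the lower one for 4. Over all 10854 genes 27.7% were at least 2-fold apart, 17.7% higher and 9.97% lower. The members' median difference was -0.12 and that of all genes 0.05. When both libraries were rescaled to the same FPKM sum, 7 members were higher and 2 lower, Smarca4 and Brd9 being then under 2-fold apart. The members' median then turned to 0.06, with 44 members above 0 and 34 below, against 33 above and 46 below as deposited, and the median of all genes moved to 0.23. In all 10 genes the deposited bounds of the libraries did not overlap, which covers error within a library only. The same held for many members less than 2-fold apart, among them Brd1, Hdac2 and Kdm5b, so it does not set the 10 apart. Of the 522 member values 6, in Hdac1, Kat8, Setd4 and Trim28, lay outside their own deposited bounds.

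**Figure D3:**
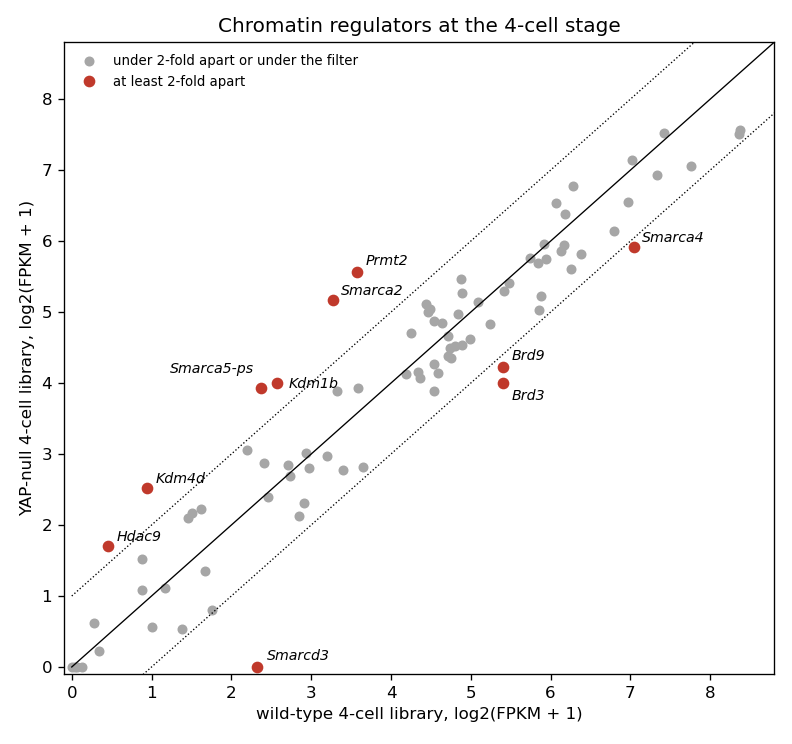
Level of each of the 87 genes in the YAP-null 4-cell library (vertical axis) and in the wild-type 4-cell library (horizontal axis), both as log2(FPKM + 1). The solid line marks equal levels and the dotted lines a 2-fold difference; the 10 red points lie at least 2-fold apart, 6 above the lines and 4 below.

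The genes higher in the YAP-null 4-cell library were Prmt2, Smarca2, Kdm4d, Smarca5-ps, Kdm1b and Hdac9. Prmt2, a nuclear receptor coactivator with arginine methyltransferase activity, had 46.5 FPKM in YAP-null 4-cell embryos and 10.9 FPKM in wild-type ones, a ratio of 4.25, beside 34.5 to 65.6 FPKM in the GV libraries. Smarca2 had 34.9 FPKM in YAP-null 4-cell embryos and 8.66 FPKM in wild-type ones, a ratio of 4.03. Kdm1b had 15.0 FPKM in YAP-null 4-cell embryos and 4.93 FPKM in wild-type ones, a ratio of 3.04, beside 73.5 to 79.1 FPKM in the GV libraries. Prmt2, Smarca2 and Kdm1b are thus transcripts with oocyte levels at or above the higher 4-cell value in at least some GV libraries. Kdm4d, an H3K9 demethylase, was otherwise: it had 4.77 FPKM in YAP-null 4-cell embryos and 0.930 FPKM in wild-type ones, and no more than 0.412 FPKM in a GV library. The pseudogene Smarca5-ps had 14.3 FPKM in YAP-null 4-cell embryos and 4.18 FPKM in wild-type ones, and no more than 0.306 FPKM in a GV library. Hdac9, a class IIa deacetylase, had 2.25 FPKM in YAP-null 4-cell embryos and 0.373 FPKM in wild-type ones, and 1.56 to 2.87 FPKM in the GV libraries.

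Of the 4 genes at least 2-fold lower in the YAP-null 4-cell library, Smarca4 was the most abundant, with 59.5 FPKM in YAP-null 4-cell embryos (bounds of 56.6 and 62.5) and 131 FPKM in wild-type ones (bounds of 128 and 136), with the wild-type level 2.20 times as high. Brd3 had 15.0 FPKM in YAP-null 4-cell embryos and 41.4 FPKM in wild-type ones, with the wild-type level 2.76 times as high. Brd9, a subunit of a non-canonical SWI/SNF complex, had 17.8 FPKM in YAP-null 4-cell embryos and 41.3 FPKM in wild-type ones, with the wild-type level 2.32 times as high. The YAP-null value of Brd9 lay within its GV range of 15.3 to 18.3 FPKM, whereas the wild-type value lay above it. Smarcd3, an accessory SWI/SNF subunit, was listed at 0 in YAP-null 4-cell embryos, against 4.01 FPKM in wild-type ones. Trim28, Prmt1, Chd4 and Hdac1 were also lower in the YAP-null library by under 2-fold: Trim28 by 1.81 times, Chd4 by 1.79 times, Prmt1 by 1.75 times and Hdac1 by 1.64 times. Others were higher by under 2-fold, among them Hdac8 (1.91 times) and Smarcal1 (1.88 times). Over all 79 members 33 were higher and 46 lower. Both 4-cell values of Trim28 and of Hdac1 lay above their deposited bounds. Kdm5b and Prmt6, the genes that rose most from oocyte to embryo, were under 1.5-fold apart: Kdm5b had 141 FPKM in YAP-null embryos and 129 FPKM in wild-type ones, and Prmt6 had 109 FPKM in YAP-null embryos and 76.5 FPKM in wild-type ones.

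By family the 4-cell differences went both ways, and the direction depended in part on the scaling. Of 7 Brd genes 5 were lower in the YAP-null library, with a median of -0.35, and of 8 arginine methyltransferases 5 were lower, with a median of -0.54; both counts were also found under an equal FPKM sum, with medians of -0.16 and -0.36. Of 7 acetyltransferases 6 were lower, with a median of -0.23, none by 2-fold; under an equal FPKM sum 4 were lower, with a median of -0.05. The 4 PRC2 genes were all slightly higher in the YAP-null library, with a median of 0.08, and of 0.27 under an equal FPKM sum. The 16 demethylases split evenly, 8 higher and 8 lower, but under an equal FPKM sum 11 were higher and 5 lower, and under quantile normalization 7 were higher and 9 lower. Over all genes 5667 were higher and 5187 lower as deposited. Under an equal FPKM sum 6629 of all genes were higher and 4239 lower, and under quantile normalization 4993 were higher and 5851 lower. The median of all genes was 0.05 as deposited and 0.23 under an equal FPKM sum. The YAP-null 4-cell library also had the higher oocyte marker sum and the lower cleavage-stage marker sum given above, and blood markers summed to 25.9 FPKM in it and 93.7 FPKM in the wild-type library. Single markers went against their sums: Sohlh1 was lower in the YAP-null library, and Pou5f1 (322 against 207 FPKM) and Zfp352 were higher. Nearly all of the YAP-null blood sum was Hba-a1, at 25.9 FPKM, against 26.3 FPKM in the wild-type library. The part of these marker differences in the 4-cell results was not tested.

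In GV oocytes the genotypes were compared with 2 libraries each. None of the 70 members tested passed in limma, and none had an unadjusted p under 0.05. Over all 10462 genes 0% passed, with 22 at an unadjusted p under 0.05, and with 2 libraries a side an exact permutation test of a single gene cannot go below 0.333. The members' differences ran from -0.36 (Prmt5) to 0.49 (Kdm2a), with a median of -0.01, against -0.00 for all genes. Kdm2a, an H3K36 demethylase, had 3.97 and 6.48 FPKM in the YAP-null libraries and 2.70 and 4.10 FPKM in the wild-type libraries (SE of the log2 difference 0.42, limma unadjusted p = 0.302). Prmt5 had 10.04 and 4.77 FPKM in the YAP-null libraries and 11.4 and 7.42 FPKM in the wild-type libraries. Hdac2 had 54.1 and 48.7 FPKM in the YAP-null libraries and 42.2 and 38.8 FPKM in the wild-type libraries, a difference of 0.33. Smarcad1, a remodeller of the SNF2 family, had 12.4 and 9.72 FPKM in YAP-null GV oocytes and 8.30 and 8.54 FPKM in wild-type GV oocytes, a difference of 0.35. Trim28 had 102 and 106 FPKM in YAP-null GV oocytes and 131 and 112 FPKM in wild-type GV oocytes, a difference of -0.22. The differences of Kdm2a, Prmt5, Hdac2, Smarcad1 and Trim28 did not pass the test, which with this few libraries does not show that the levels were alike.

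The libraries numbered 1 and those numbered 2 stood apart from each other in both genotypes. Between the YAP-null libraries 27 of the 70 members were at least 2-fold apart (26.7% of all genes were), and between the wild-type libraries 29 were (23.3% of all genes). These were largely the same genes, since 26 were at least 2-fold apart in both genotypes. In YAP-null oocytes 23 of the 27 were higher in library 2, and in wild-type oocytes 24 of the 29. Kat6b, Setd2 and Chd7, with log2 differences of 3.07, 3.10 and 3.03 in YAP-null oocytes and 2.94, 2.81 and 2.95 in wild-type oocytes, were among the farthest apart. Smarcd2, Smarcb1 and Setd4 were instead higher in library 1, by 1.35, 1.37 and 1.38 in YAP-null and 1.09, 1.17 and 1.05 in wild-type oocytes. Compared within a number the genotypes were closer: no member was 2-fold apart between the YAP-null and wild-type libraries numbered 1 (1.65% of all genes were) or between those numbered 2 (1.51% of all genes). Within number 1 the differences of members ran from -0.78 to 0.53, and within number 2 from -0.55 to 0.55.

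**Figure D4:**
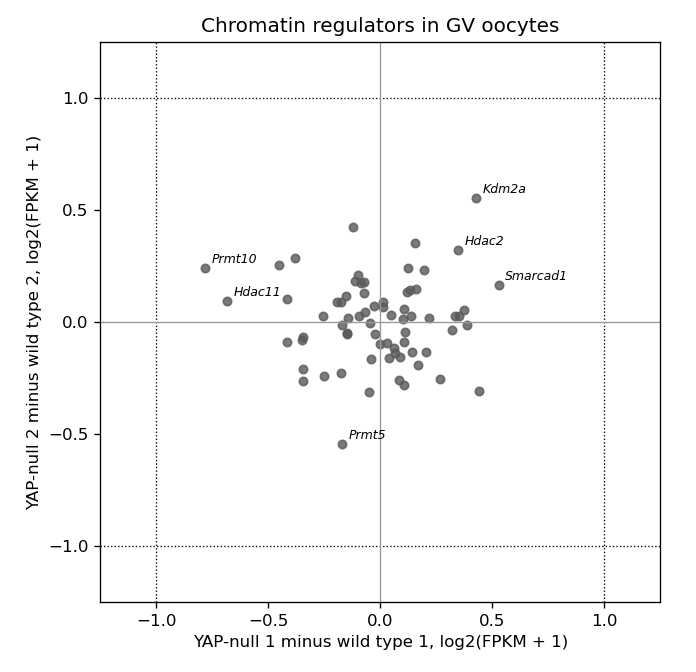
Difference between YAP-null and wild-type GV oocytes for the 70 members tested, within the libraries numbered 1 (horizontal axis) and within those numbered 2 (vertical axis), as log2(FPKM + 1). Dotted lines mark 2-fold; every point lies inside them.

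Longer transcripts of the set tended to be higher in library 2. Across the 70 members the difference of library 2 from library 1, averaged over the genotypes, had a Spearman correlation of 0.641 with the length of the longest annotated transcript, against 0.359 across 10384 genes; these points share the same 4 libraries. The 22 members higher by more than 1 log2 unit in library 2 had a median length of 6676 bases, and the 4 higher by more than 1 in library 1 a median of 3110 bases. The labels do not say what the numbers stand for, and the cause was not tested. Of the 78 members tested 13 had opposite signs of stage difference against the libraries numbered 1 and those numbered 2. Chd4 was 1.72 against number 1 (limma adjusted p = 0.0054) and -0.95 against number 2 (adjusted p = 0.069), and the H3K27 demethylase Kdm6b was 0.08 (adjusted p = 0.89) and -2.71 (adjusted p = 0.00091). None of the 13 passed with all libraries. Each of the 39 that passed kept its direction within each genotype and against each number. That follows from their 4-cell and GV libraries not overlapping and is no further check.

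**Figure D5:**
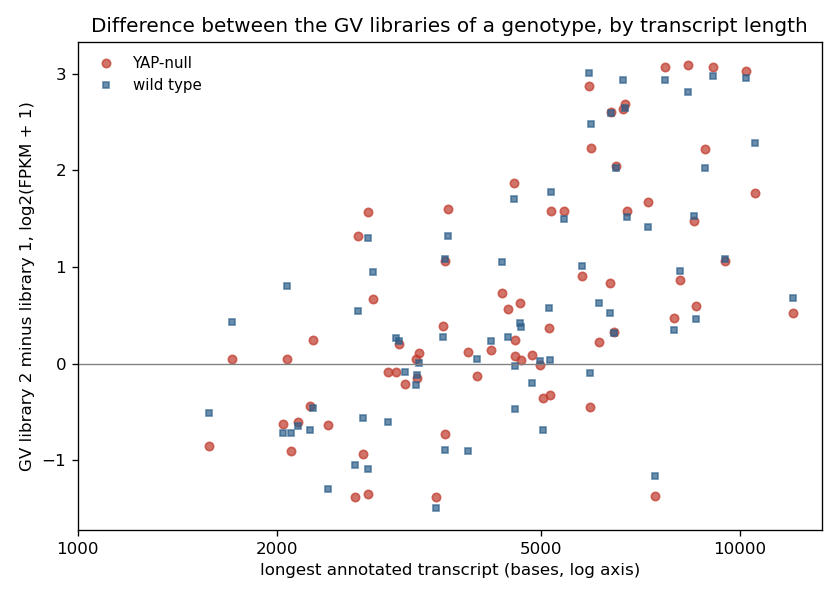
Difference between GV library 2 and GV library 1 of a genotype (vertical axis, log2(FPKM + 1)) by the length of the longest annotated transcript (horizontal axis, bases, log axis) for the 70 members tested, YAP-null as red circles and wild type as blue squares. Circle and square of a gene lie a median of 0.20 apart, and farthest apart in Prmt10 (0.12 in YAP-null and -0.90 in wild-type oocytes); the points above 2 belong to transcripts longer than 5000 bases.

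Whether the stage difference itself depended on genotype was tested in the same 6 libraries, with the lone 4-cell libraries assumed to vary as the GV libraries do. None of the 78 members passed in limma, against 0.157% of 11451 genes. At an unadjusted p under 0.05 there were 3 of the 78 members, against 1181 of the 11451 genes. The 3 were Smarca5-ps, Kdm4d and Kdm1b, with a smallest adjusted p of 0.227. The stage difference of Kdm1b was -2.32 in YAP-null libraries and -3.67 in wild-type ones (unadjusted p = 0.0234, limma adjusted p = 0.406). For Kdm4d the values were 2.44 in YAP-null libraries and 0.70 in wild-type ones (unadjusted p = 0.0145, limma adjusted p = 0.359). This comparison shares its 4-cell libraries with the genotype comparison at that stage.

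Other regulators of chromatin, a list of 135 further genes found in the tables, give the surrounding pathway. In the stage comparison 33 of the 125 tested rose (26.4%) and 20 fell (16%), with a median of 0.47, against 28.2% higher and 27.8% lower over all genes. These 53 calls came to 25 without the YAP-null and to 19 without the wild-type 4-cell library. The NuRD subunit Mta2 had 191 FPKM in both the YAP-null and the wild-type 4-cell library, against 2.55 to 4.26 FPKM in the GV libraries. The heterochromatin protein Cbx3 had 162 and 213 FPKM in the YAP-null and wild-type 4-cell libraries, against 4.52 to 6.39 FPKM in the GV libraries. Ruvbl1, Smyd5 and Baz1a followed, with log2 differences of 3.92, 3.51 and 3.48. The largest falls were those of Setmar (-2.62), the H3K9 methyltransferase Setdb1 (-2.56), the deacylase Sirt5 (-2.41), the NuRD subunit Mta1 (-2.25) and the PRC2 accessory protein Phf19 (-2.22). The NuRD subunits thus differed in direction, since Mta2 rose and Mta1 fell. At the 4-cell stage 15 of 121 were higher by 2-fold or more in the YAP-null library and 4 were lower by as much. Over all 10854 genes 1925 were higher (17.7%) and 1082 lower (9.97%) by as much. The Polycomb protein Cbx2 had 76.2 FPKM in YAP-null 4-cell embryos and 18.1 FPKM in wild-type ones, and Phc2 had 319 FPKM in YAP-null embryos and 97.5 FPKM in wild-type ones. The H3K9 methyltransferase Ehmt2 had 19.2 FPKM in YAP-null 4-cell embryos and 50.7 FPKM in wild-type ones, and the PRC2 cofactor Jarid2 had 17.9 FPKM in YAP-null embryos and 46.1 FPKM in wild-type ones. In GV oocytes none of the 121 tested passed in limma, and none had an unadjusted p under 0.05.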

How the data were processed

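The authors deposited 1 table of genes for each library; its FPKM values are fragments scaled to transcript length and library size, per the file headers. Reads were handled with CASAVA 1.8 and TopHat and placed on mm9, per the submitters' processing notes; TopHat version, quantification tool, annotation and strand setting were not given in the sources used here. A line marked as failed was dropped from the 23813 lines of each file, and the 260 symbols listed at several loci were summed. Members and gene lists were chosen with earlier results of these data known.

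Values were tested as log2(FPKM + 1) with limma 3.58.1 (intensity trend) in R 4.3.3, over all genes that averaged 1 FPKM or more in the libraries compared, two-sided, with Benjamini-Hochberg adjustment over all genes tested and a threshold of 0.05. The stage fit used all 6 libraries with genotype as a covariate and 3 residual degrees of freedom; it assumes that 4-cell libraries vary as GV libraries do. The 4-cell genotype difference has no test. The fit was tested on simulated data. No counts can be had from the tables, so no interval of counting error is given; the deposited bounds, whose level is not stated, had a median half-width of 6.01% to 12.7% of the value for members of at least 10 FPKM. Up to 12 genes a direction were named for stage by size of change, up to 10 for the 4-cell stage with at least 5 FPKM in a library, and up to 5 a direction by p in GV oocytes, plus the paralogue pairs; Hdac9, Kdm4d, Smarcd3, Prmt2's pairing and the genes named for their library number or family role were chosen after their values were seen. One gene among the paralogues is not reported here. Alternatives were other pseudocounts, filters, scalings, loci, variance models, fold limits and left-out libraries. Promoters came from RefSeq (GRCm38.p6); transcript lengths from GENCODE M21 were matched by symbol.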

Additional observations from a re-analysis of the deposited data

How the results depend on the processing

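The stage calls rested on the 4-cell libraries: leaving out 1 library at a time gave 19 to 42 members against 39, with 24 without the YAP-null and 19 without the wild-type 4-cell library. Within YAP-null libraries 19 passed and within wild-type libraries 29. Of the 39, those that passed in neither were Brd1, Brd3, Ezh2, Hdac3, Kdm2a, Prmt3, Prmt7, Setd8, Smarca4 and Suz12. Calls over all genes tested also fell without either 4-cell library and within either genotype, so the loss was not particular to the members. Against the GV libraries numbered 1 only, or numbered 2 only, 52 and 46 members passed, and more of all genes tested passed as well. These alternatives were chosen after seeing the data. Other pseudocounts, filters, scalings and the model without an intensity trend kept the stage count between 34 and 40 and the GV count at 0. At the 4-cell stage, on the log2(FPKM + 1) scale, 30 members were at least 1.5-fold and 1 (Smarcd3) at least 4-fold apart, and 10 at 2-fold; by the ratio of FPKM itself 13 were at least 2-fold and 4 (Hdac9, Kdm4d, Prmt2 and Smarca2) at least 4-fold apart, beside Smarcd3, which was listed at 0 in the YAP-null library. For genotype by stage, Smarca5-ps and Prmt8 passed only without a filter on low values, a setting in which a larger share of all genes tested passed as well. Prmt8 was listed at 0 in every library but the wild-type 4-cell one. Quantile normalization moved the stage median of all genes to -0.21, and an equal FPKM sum moved the GV median to -0.13.

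In GV oocytes the replicate block, with the number as a block, called 0 members. Same-numbered libraries deviated together (correlation 0.849 over 10462 genes and 0.965 over 70 members), but with 2 pairs and labels that give the number no meaning they were not treated as paired. No named GV difference passed, and several turned sign when a library was left out. Leaving out each GV library gave a range of -0.11 (without wild-type 2; -0.09 without YAP-null 1) to 0.54 for Prmt1, -0.13 (without wild-type 1) to 0.50 for Smarca5, -0.83 to 0.11 (without YAP-null 2) for Prmt5, -0.72 to 0.18 (without wild-type 1) for Prmt10, -0.60 to 0.0885 (without wild-type 1) for Hdac6 and -0.96 to 0.37 (without YAP-null 1) for Hdac11; the cause was not tested. Depth is unknown, so values under 1 FPKM are the least certain.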
